A study of Arabidopsis thaliana with 58 samples.

Results

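The regions described here are the H3K9me2 peaks of the chromosome 2 arms in Arabidopsis thaliana flower buds. A peak belonged to the short arm when its summit lay below 3500000 bp (3.5 Mb), and to the long arm when it lay at or beyond 6700000 bp (6.7 Mb). By this rule 439 of the 4144 peaks of the list were members, 318 on the short arm and 121 on the long arm. The other 487 peaks of chromosome 2 lay in the pericentromere between these borders. Chromatin came from unopened buds of wild-type Columbia-0 (Col-0) plants 4 to 5 weeks old, grown in long days, and was immunoprecipitated with an antibody against H3K9me2. Reads were single-end and 50 bases long. All 4144 peaks, 926 of them on chromosome 2, come from 1 library, so no spread between replicates could be measured, no test was made, and the arms are set side by side as descriptions. A library made with an antibody against histone H3 from the same chromatin was not analysed here.

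H3K9me2 is the dimethylation of lysine 9 of histone H3, a mark of silent chromatin. In plants it is written by the SUVH histone methyltransferases, which bind methylated DNA, and it is read by the chromomethylases CMT2 and CMT3, which methylate cytosines outside CG sites. CMT3 acts mainly at CHG sites, in which H stands for A, C or T, so the histone mark and DNA methylation maintain each other. The mark covers transposons and other repeats, which are densest around the centromere, and is scarce over active genes. The short arm of chromosome 2 is unusual in that it carries ribosomal RNA (rRNA) genes at its tip and a long insertion of mitochondrial DNA near the centromere.

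The insertion gave the widest peak of both arms, so its junctions are shown first. The mitochondrial genome of the reference aligned to chr2:3239038-3509765, a length of 270728 bp. The plus strand is given for 60 bases on either side of each junction (left, chr2:3238978-3239097, and right, chr2:3509706-3509825, TAIR10.1), with the bases that aligned to the mitochondrial genome in capitals.
left junction: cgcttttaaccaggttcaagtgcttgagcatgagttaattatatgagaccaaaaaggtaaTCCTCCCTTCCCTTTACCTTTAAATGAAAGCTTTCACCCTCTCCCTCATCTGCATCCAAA
right junction: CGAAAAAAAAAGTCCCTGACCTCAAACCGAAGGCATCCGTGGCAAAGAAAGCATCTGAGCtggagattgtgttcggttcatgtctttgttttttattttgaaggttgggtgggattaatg
The peak ran from chr2:3222898-3509936. It therefore began 16140 bp before the left junction and ended 171 bp beyond the right one.

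Long terminal repeat (LTR) retrotransposons are copied from RNA, and their first DNA strand is primed by a tRNA. The binding site of that primer lies just after the first repeat, toward the middle of the element. Among the peaks named below for their width or fold, 5 had such a site at the inner edge of a repeat of a direct pair. They are shown on the strand of the element, 60 bases each, with the 12 bases that complement the 3′ end of a tRNA in capitals.
element from 1629633, chr2:1636298-1636357, minus strand: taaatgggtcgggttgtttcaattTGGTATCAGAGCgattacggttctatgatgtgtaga
element from 3083897, chr2:3088930-3088989, minus strand: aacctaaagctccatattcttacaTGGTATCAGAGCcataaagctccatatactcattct
element from 6717298, chr2:6717699-6717758, plus strand: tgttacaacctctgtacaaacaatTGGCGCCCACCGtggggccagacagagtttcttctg
element from 8816056, chr2:8820677-8820736, minus strand: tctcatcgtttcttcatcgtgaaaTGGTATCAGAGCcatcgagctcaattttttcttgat
element from 9187491, chr2:9194517-9194576, minus strand: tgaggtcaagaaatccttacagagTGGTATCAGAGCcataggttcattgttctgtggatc
The site of 4 of these elements matched tRNA-Met, and that of the element from 6717298 matched tRNA-Lys. The element from 8816056 had 2 identical end repeats of 174 bases, of which the first (chr2:8816056-8816229, minus strand) is shown in full.
end repeat: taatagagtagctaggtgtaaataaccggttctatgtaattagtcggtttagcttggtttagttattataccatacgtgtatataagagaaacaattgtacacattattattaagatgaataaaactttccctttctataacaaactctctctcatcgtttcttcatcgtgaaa

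The summits of the peaks with the highest fold in each arm and the lowest fold in each arm are shown for comparison, as 100 bases of the plus strand. Capitals mark the trinucleotides CAG, CTG, CCG and CGG, which are the CHG sites of both strands and may overlap.
short arm, highest fold, chr2:1635040-1635139: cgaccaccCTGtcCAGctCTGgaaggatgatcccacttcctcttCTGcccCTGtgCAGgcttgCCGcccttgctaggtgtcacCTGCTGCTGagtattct
short arm, lowest fold, chr2:2560930-2561029: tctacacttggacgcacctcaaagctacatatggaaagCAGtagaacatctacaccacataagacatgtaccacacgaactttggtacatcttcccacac
long arm, highest fold, chr2:13224426-13224525: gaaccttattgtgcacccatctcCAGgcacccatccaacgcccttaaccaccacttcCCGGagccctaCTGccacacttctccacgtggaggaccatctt
long arm, lowest fold, chr2:17363138-17363237: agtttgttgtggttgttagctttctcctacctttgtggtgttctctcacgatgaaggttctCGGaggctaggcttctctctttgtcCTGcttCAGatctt
The summit of fold 9.60 on the short arm held 10 of these trinucleotides, a number reached in 1.06% of the 34988 windows of 100 bases on that arm, where the median was 3. The summit of fold 8.47 on the long arm held 4, a number reached in 34.9% of the 129981 windows of its arm, where the median was also 3. The summits of lowest fold held 1 on the short arm and 3 on the long arm.

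The short arm was far more densely marked than the long arm, but its single peaks were alike in width and enrichment. Peaks covered 29.5% of the 3.5 Mb of the short arm and 2.14% of the 12998289 bp of the long arm. There were 90.9 peaks per Mb on the short arm and 9.31 on the long arm. The median width was 971 bp (quartiles 450 and 2723) on the short arm and 1035 bp (quartiles 442 and 3896) on the long arm. Fold enrichment is the caller's ratio of the signal at the summit to a background that the sources used here do not define. Its median was 2.56 (quartiles 2.09 and 3.27) on the short arm and 2.60 (quartiles 2.16 and 3.82) on the long arm. The pericentromere of the same chromosome had 152 peaks per Mb over 49.8% of its bases, with a median fold of 2.53. The arms of the other 4 chromosomes together had 11.8 peaks per Mb over 2.73% of their bases, with a median fold of 2.76. They were not alike: chromosome 4 had 20.3 per Mb over 4.75%. Chromosomes 1, 3 and 5 had 9.88, 10.2 and 9.35 per Mb over 2.33, 2.23 and 2.20%. The long arm was nearest to chromosomes 1, 3 and 5, and the short arm lay between all of these and the pericentromere. These values pool both arms of a chromosome, and pooled in this way chromosome 2 had 26.6 per Mb over 7.94%.

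Protein-coding genes took up 33.7% of the short arm and 62.6% of the long arm. Bins of 100 kb were therefore compared at like gene shares, leaving out the insertion. In bins with 30 to 50% of bases in genes, the median share inside peaks was 9.99% in 8 bins of the short arm and 7.64% in 17 bins of the long arm. The ranges in these bins overlapped widely, from 0.525 to 32.5% and from 0 to 31.6%. In bins with at least 50% of bases in genes, the medians were 0.4875% in 8 bins and 0% in 113 bins. The bins under 30%, 16 in number with a median of 42.1% inside peaks, lay without exception on the short arm.

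**Figure D1:**
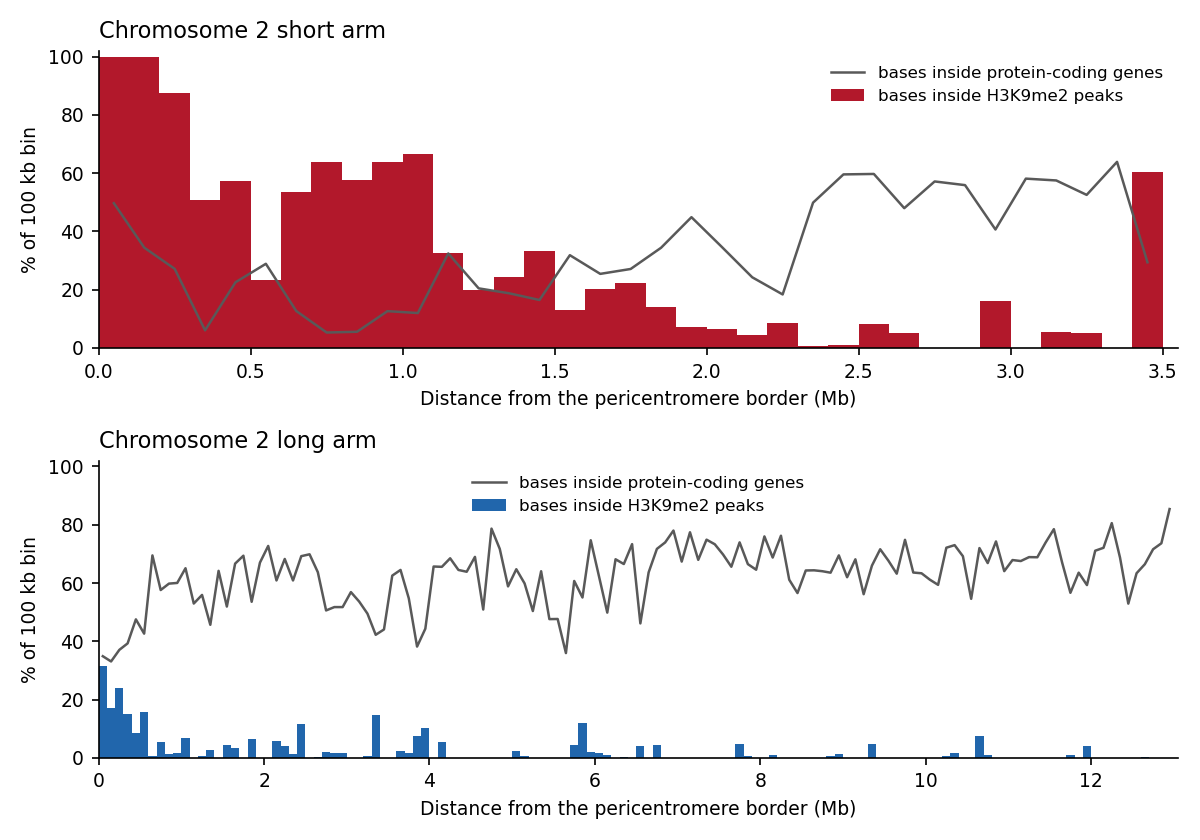
Share of each 100 kb bin inside H3K9me2 peaks (bars) and inside protein-coding genes (line), against the distance from the pericentromere border in Mb, for the short arm (top) and the long arm (bottom). On the short arm most bars stay high for more than 1 Mb, with a dip to 23.2% at 0.55 Mb. They rise again at the tip, where the rRNA genes lie, while the highest bar of the long arm is 31.6%.

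Along the short arm, 4 zones differed in how they were marked. The first 50 kb, the rRNA gene end, was 97.8% inside a single peak. From there to 1.8 Mb, the distal short arm had 78 peaks (44.6 per Mb) over 6.63% of its bases. From 1.8 Mb to the insertion, the gene-poor stretch had 238 peaks (165 per Mb) over 42.2% of its bases, and only 17.5% of its bases lay in protein-coding genes. The part of the insertion within the arm was 100% covered by 1 peak. On the long arm the mark thinned with distance up to the last step: in steps of 2 Mb from the pericentromere border, the share inside peaks was 7.28, 3.25, 1.33, 0.846 and 0.383%, and it was 0.544% in the last 3.00 Mb. The number of peaks in these steps was 56, 27, 9, 14, 7 and 8.

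The peak over the rRNA gene end, chr2:986-49906, was the second widest of both arms, at 48921 bp. Its fold of 1.67 was among the lowest: 6 of the 318 peaks of the short arm had that fold or less. The summit, at 4766, lay in AT2G01010, a gene for the RNA of the small ribosomal subunit, and AT2G01020 and 7 pseudogene loci also lay wholly inside the peak. The reference sequence starts with 1000 unknown bases, and the peak begins just within them. Of the words of 50 bases, the length of a read, 20.4% in the first 10 kb and 34.9% from 10 to 50 kb occurred once in the reference. The array of rRNA genes continues beyond the assembled sequence, and reads from copies not in the reference cannot be told apart from these. The 100 bases at the summit (chr2:4716-4815, CHG trinucleotides in capitals) held 6 of the marked trinucleotides.
rRNA gene end: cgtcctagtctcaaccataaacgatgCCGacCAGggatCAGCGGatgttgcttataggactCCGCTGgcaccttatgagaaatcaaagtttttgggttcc

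The peak over the mitochondrial insertion was 287039 bp wide with a fold of 5.97 and a −log10 q of 140. It alone made up 27.5% of the summed width of the short-arm peaks, and the next widest peak of both arms was the 48921 bp at the rRNA genes. The insertion was 99.4% identical to the mitochondrial genome over its aligned length and held 72.3% of that genome. Its GC content was 44.6%, against 34.9% for the rest of the arm between the rRNA genes and the insertion. It carried 94 protein-coding genes by annotation, 91 of them centred within the arm. These included 4 for cytochrome c assembly (among them ABCI5 and ABCI4), 5 for cytochrome b or cytochrome c oxidase, 5 for ATP synthase, 4 for NADH dehydrogenase and 4 for ribosomal proteins, which serve respiration or the organelle's own translation. A further 66 were uncharacterized, and 23 tRNA genes stood among them. Only 3.99% of its words of 50 bases occurred once in the reference, and 95.9% were also in the mitochondrial genome, the word at the summit included. At this read length, reads of the insertion and reads of the mitochondrial genome therefore cannot be told apart over almost all of it. The 16140 bp of the peak left of the insertion held 76.2% of words found once, and in the 100 kb before the peak 46.3% of bases lay inside other peaks. The summit (chr2:3269311-3269410) is shown with CHG trinucleotides in capitals, of which it held 10.
mitochondrial insertion: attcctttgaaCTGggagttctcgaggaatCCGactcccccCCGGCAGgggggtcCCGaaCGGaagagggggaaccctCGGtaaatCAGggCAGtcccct

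Outside these peaks, wide peaks lay over loci annotated as pseudogenes, the class in which the annotation used here also places transposon genes. Including the rRNA and insertion peaks, 12 peaks of the short arm and 4 of the long arm were at least 10 kb wide. The 10 others of the short arm were all in the gene-poor stretch. The widest was chr2:2486481-2512342 (25862 bp, fold 8.53), which covered 6 pseudogene loci (AT2G06303 to AT2G06350) and no protein-coding gene. Next came chr2:2387037-2410336 (23300 bp, fold 7.37), over 5 pseudogene loci and AT2G06105, whose product is an aspartyl protease gag-polyprotein, a protein of retroelements. A further wide peak of the arm, chr2:3075933-3092659 (16727 bp), had a lower fold of 3.57 and covered 4 pseudogene loci.

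The highest fold of the short arm was not in a wide peak. This peak of fold 9.60, chr2:1630577-1637107, lay in the distal short arm, was 6531 bp wide and covered the single pseudogene locus AT2G04670. Both wide peaks just named, with folds of 8.53 and 7.37, came among the 5 highest. Between them stood chr2:2446794-2454453, with a fold of 7.90 over 3 pseudogene loci. The last of the 5, chr2:58605-67228, had a fold of 7.01 and lay only 8698 bp beyond the rRNA peak, over AT2G01037 and AT2G01040.

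The wide peaks of the long arm lay both near the pericentromere and farther out. The widest, chr2:10592359-10608792 (16434 bp, fold 5.38), covered 6 pseudogene loci and lay within 1 kb of MAPR2, which encodes a membrane-associated progesterone binding protein. The second widest, chr2:6717210-6729111 (11902 bp, fold 5.19), lay close to the pericentromere and carried the element with the tRNA-Lys site shown above. The third widest, chr2:12566530-12578325 (11796 bp), also had the second highest fold, 8.25, and only 1.69% of its words occurred once in the reference, so that reads of it and of near-identical copies cannot be told apart. The next in width were chr2:7009133-7019178 (fold 3.69) and chr2:9187456-9195262 (fold 5.77).

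The highest fold of the long arm, 8.47, was at chr2:13223076-13227096, a peak of 4021 bp over the pseudogene locus AT2G31080 and within 1 kb of TCP10, a TCP family transcription factor gene. All of its words of 50 bases occurred once in the reference and its summit had no copy elsewhere, in contrast to the peak of fold 8.25. After these came chr2:18651355-18655508, with a fold of 6.65 over AT2G45230, also with all words found once and within 1 kb of MAP1A, which encodes a methionine aminopeptidase. The next was chr2:10085723-10093520 (fold 6.41), with 17.5% of words found once. The last of the 5, chr2:8816010-8821175 (fold 6.30), covered the whole of the element with identical end repeats, and AT2G20450, a gene for ribosomal protein L14, lay within 1 kb of it.

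Peaks of low fold were mostly short, with the rRNA peak as an exception. The lowest folds of the short arm were both 1.48, at chr2:2560617-2561130 and chr2:2224849-2225359, outside any annotated locus. The lowest of the long arm was 1.54, at chr2:17362960-17363398, over AT2G41640 and AT2G41650. At the borders, the last peak of the short arm was the insertion peak itself, which runs past 3.5 Mb, and the first peak beyond was chr2:3511030-3511471 (fold 2.18). The last peak before the long arm was chr2:6619819-6625793 (fold 3.82) and the first inside was chr2:6700764-6706550 (fold 4.78).

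Wider peaks had higher folds in both arms, with Spearman's rho of 0.84 over the 318 peaks of the short arm and 0.85 over the 121 of the long arm. Neighbouring peaks are not independent and a wide region offers more bases for a high summit, so these are descriptions. On the short arm, 42 peaks of at least 5 kb held 66.0% of the summed width, with a median fold of 4.97. On the long arm 18 such peaks held 49.8%, with a median fold of 5.31. Peaks under 500 bp, 91 and 37 in number, held 3.06% and 4.67%, with median folds of 2.03 and 2.11.

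**Figure D2:**
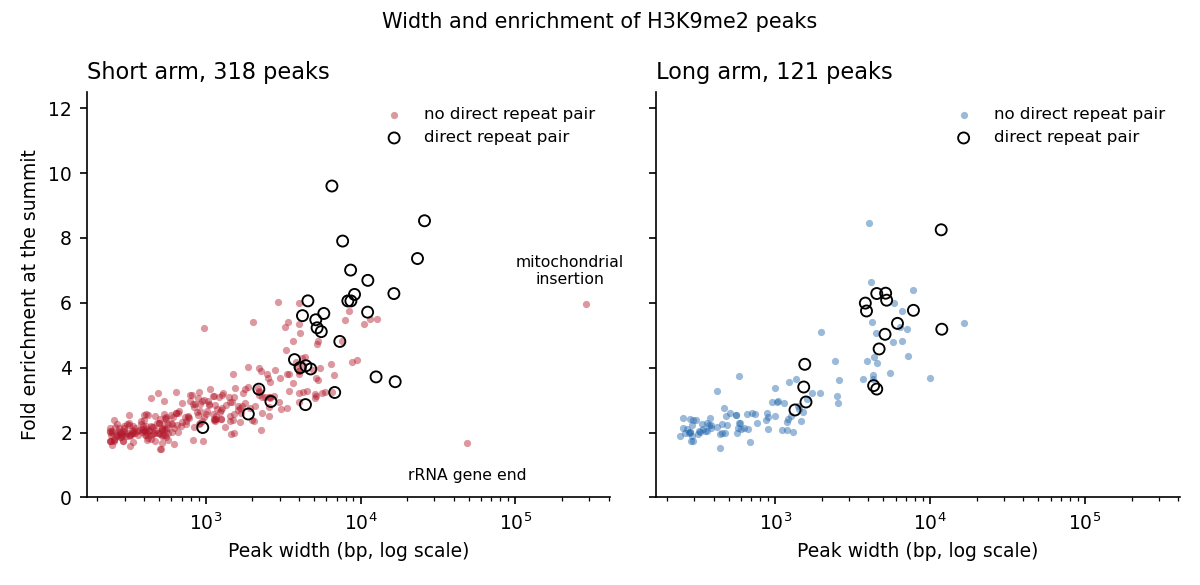
Fold enrichment at the summit (vertical) against peak width in bp (horizontal, log scale) for the short arm (left) and the long arm (right), 1 point per peak, with black circles for peaks over a pair of direct repeats. The insertion peak (fold 5.97) and the rRNA peak (fold 1.67) stand apart to the right of the short-arm points, and the circles lie mostly among the wide peaks of high fold.

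Peaks met genes and pseudogenes differently, and the arms differed most in how many genes were met. At least 1 bp of 133 of 612 protein-coding genes of the short arm lay in a peak, 21.7% (95% Wilson interval 18.6 to 25.2), against 41 of 3457 on the long arm, 1.19% (0.875 to 1.60). Over all 5 chromosomes this share was 2.53% of 27444 genes. Most of the genes on the short arm came from the insertion, where 91 of 91 were covered. The others were 3 of 3 at the rRNA end, 31 of 122 in the gene-poor stretch (25.4%, 18.5 to 33.8) and 8 of 396 in the distal short arm (2.02%, 1.03 to 3.94). The intervals cover counting error only and treat loci as independent, although the 91 genes of the insertion lay under 1 peak.

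Pseudogene loci were covered far more often. On the short arm 235 of 282 met a peak, 83.3% (78.5 to 87.2), and on the long arm 67 of 105, 63.8% (54.3 to 72.4), against 83.1% of 3917 over all 5 chromosomes. The short arm was thus at the level of the genome and the long arm below it. The share over all chromosomes includes the pericentromeres, with 87.1% on chromosome 2, and the arms of the other chromosomes were not counted apart. The short arm includes 7 of 7 loci at the rRNA end and 18 of 18 in the insertion. In the first 2 Mb of the long arm the share was 71.7% (38 of 53), and in the distal short arm it was 72.1% (44 of 61). Loci of the class transcribed pseudogene met a peak in 31 of 69 cases on the short arm, 25 of them in the insertion, and in 6 of 92 on the long arm. Transfer RNA genes were covered only within the insertion, 22 of the 29 of the short arm, and in 0 of 65 on the long arm, where the Wilson interval reaches 5.58%.

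**Figure D3:**
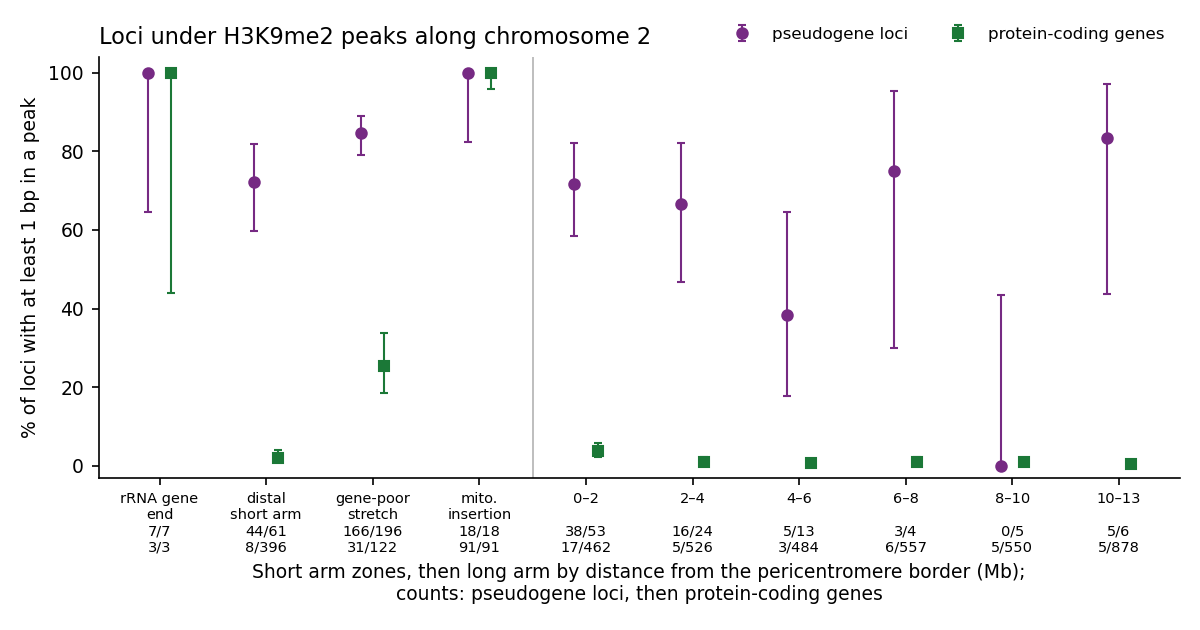
Percent of pseudogene loci (circles) and protein-coding genes (squares) with at least 1 bp in a peak, by zone of the short arm and by distance from the pericentromere border on the long arm, with 95% Wilson intervals and the counts under the axis. Pseudogene loci stay at 38.5% or more except at 8 to 10 Mb on the long arm (0 of 5), while protein-coding genes stay at or under 3.68% outside the rRNA end, the gene-poor stretch and the insertion.

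In both arms more summits lay in pseudogenes than in any other place, by a wider margin on the short arm. The share in coding sequence was higher on the long arm. Of the 318 short-arm summits 191 (60.1%) lay in a pseudogene and 87 (27.4%) between loci, while 22 lay in coding sequence, 6 in introns and 3 in untranslated regions. On the long arm 47 of 121 (38.8%) lay in a pseudogene, 27 (22.3%) between loci, 22 (18.2%) in coding sequence, 11 in introns and 4 in untranslated regions. The median distance to the nearest start of a protein-coding gene was 4974 bp on the short arm and 1690 bp on the long arm. Within 1 kb of such a start lay 28 summits of the short arm (8.81%) and 37 of the long arm (30.6%). Other positions were not measured in this way. Genes took up 62.6% of the long arm and 33.7% of the short arm. There were 282 pseudogene loci on the short arm and 105 on the long arm, which is the longer of the 2. The share of bases in pseudogenes was not measured, so the summit shares have no background to be set against.

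Protein-coding genes were also grouped by product, with groups formed after the covered genes had been seen, so that the counts are descriptions. Between the rRNA end and the insertion 39 of 518 genes met a peak (7.53%), and on the long arm 41 of 3457 (1.19%). Between the rRNA end and the insertion, 3 of 4 genes whose product names a transposon or retroelement met a peak, and on the long arm 5 of 6 did. All 4 genes called Ta11-like non-LTR retrotransposon, AT2G02103, AT2G16676, AT2G17905 and AT2G41590, were among them, with 98.4, 89.3, 75.3 and 87.1% of their length inside a peak. The exceptions were AT2G06667 (transposase-associated domain protein) on the short arm and AT2G38695 (Gag-Pol polyprotein) on the long arm, both with 0%. Zinc ion or nucleic acid binding proteins met a peak in 6 of 11 cases on the short arm and in 1 of 10 on the long arm. Kinase genes did so in 1 of 14 and 2 of 171 cases (7.14% and 1.17%, near the shares over all genes), and uncharacterized proteins in 17 of 78 and 14 of 330 (21.8% and 4.24%). The covered genes of the short arm outside the insertion and the rRNA end had a median of 83.6% of their length inside a peak (39 genes), and those of the long arm 64.7% (41 genes).

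None of 8 genes of the long arm that act in silencing or in its removal met a peak, where 1.19% of all protein-coding genes of that arm did, so the count was near that share. They were AGO4, the Argonaute protein of RNA-directed DNA methylation, NRPE1 (annotated as NRPD1B), the largest subunit of RNA polymerase V, and DRD1, a chromatin remodeller of the same pathway. The others were SUVH2, SUVH5 and SUVH6 of the SUVH family, ROS1 (annotated as DML1), which removes DNA methylation, and FVE, a histone-binding protein of the flowering pathway. The nearest peak was 6555 bp from SUVH6 and 11977 bp from DRD1, and the median distance over the 8 genes was 122328 bp.

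Of 8 flower genes 0 met a peak, again near the share over all protein-coding genes (1.19% on the long arm and 2.02% in the distal short arm). The peaks nearest to them were 11285 bp from SVP, a repressor of flowering, 11675 bp from AGL17 and 19389 bp from SEP4, a floral organ identity gene. For SOC1 (annotated as AGL20), AGL6, SHP2, CLV3 and ERECTA (annotated as ER), distances ran from 48154 bp for CLV3 to 401001 bp for SHP2.

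Of 7 loci known as silenced, 4 lay in a peak, and these 4 were transposon loci annotated as pseudogenes. Pseudogene loci met a peak in 83.1% of cases over all chromosomes and in 63.8% on the long arm, and protein-coding genes of the long arm in 1.19%. The LINE retrotransposon locus AT2G01840 had 96.6% of its length in a peak of fold 4.81 (chr2:373306-378617). The DNA transposon Hiun, a VANDAL21 copy, had AT2G23480 and AT2G23490 wholly inside a peak of fold 3.76 (chr2:10001782-10006050) and AT2G23500 wholly inside a peak of fold 2.90 (chr2:10006484-10009016). The 3 protein-coding genes of the list lay outside: SDC, silenced by DNA methylation of promoter repeats, was 22456 bp from the nearest peak. HDG3 and FIS2, which are imprinted in the endosperm, were 314281 and 131905 bp away.

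Bases inside peaks were richer in G and C than bases outside. On the short arm GC content was 42.1% inside and 33.1% outside, and on the long arm 41.0% and 35.6%. Among cytosines, the share in CHG sites was 15.4% inside and 12.7% outside on the short arm, and 16.3% and 14.2% on the long arm. This order held in all 8 zones with more than a few known bases outside peaks, and was narrowest at 8 to 10 Mb on the long arm (15.1% inside, 14.4% outside). The CG share was also higher inside over the whole short arm (14.86% and 12.55%) and, by less, over the whole long arm (13.44% and 12.81%). It was lower inside than outside at 8 to 10 Mb on the long arm (10.16% and 12.87%) and in the last 3.00 Mb (8.35% and 13.4%).

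The sequence under the peaks was also more often repeated. Words of 50 bases found once in the reference made up 58.4% inside and 95.2% outside on the short arm, and 75.2% and 98.7% on the long arm. At least 90% of words occurred once in 177 peaks of the short arm and 64 of the long arm, with median folds of 2.52 and 2.56. In peaks with under 50% such words, 56 and 24 in number, the medians were 2.58 and 2.80, inside the quartiles of the others.

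**Figure D4:**
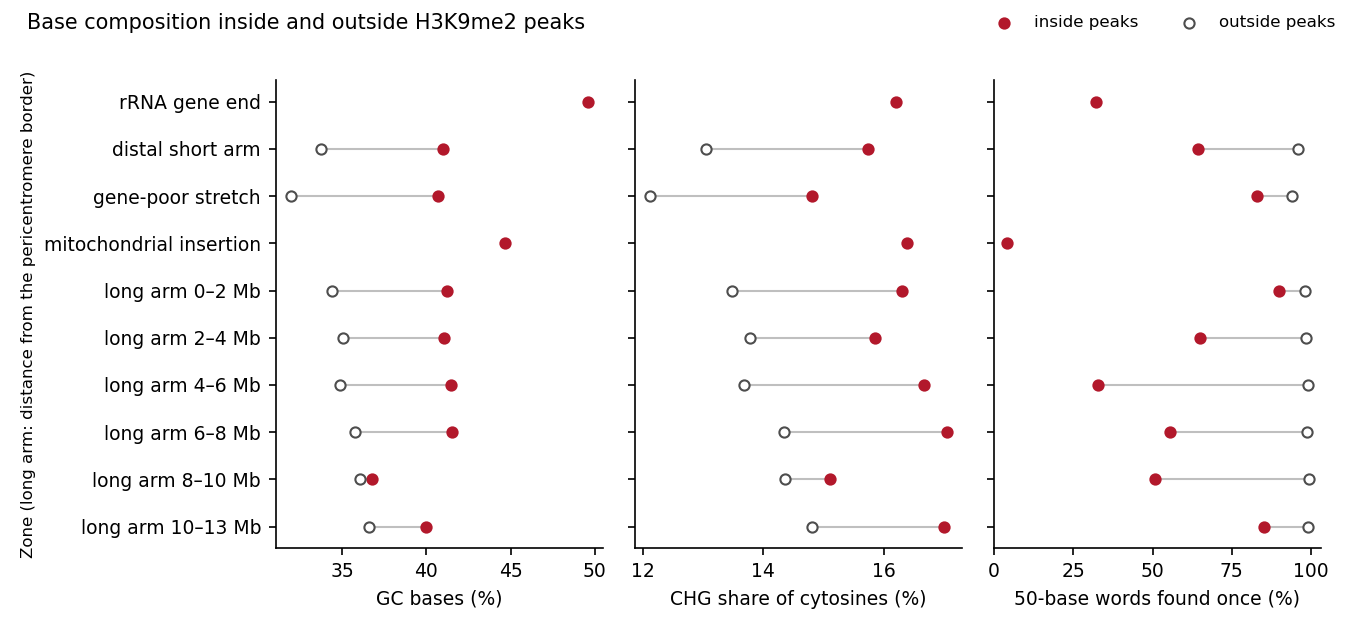
GC content (left), share of cytosines in CHG sites (middle) and share of 50-base words found once in the reference (right), inside peaks (filled) and outside (open), for each zone from the tip of the short arm to the end of the long arm. Filled points lie to the right of open points for GC and CHG in every zone drawn with both, and to the left for words found once, and the insertion has the lowest filled point, 4.01%. The 1079 bases of the rRNA gene end outside its peak, mostly unknown, are not drawn.

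Copies of the summit sequences lay mostly in peaks too. Windows of 200 bases around the summits were searched for copies of at least 80% identity over at least 80% of the window. Of the 318 short-arm windows 96 had no copy and 89 had 10 or more. On the long arm 45 of 121 had none and 13 had 10 or more. Of the 3648 copies found for the short arm 86.5% lay inside a peak of the list on some chromosome, and of the 542 for the long arm 70.8%. Many windows of 1 family find the same copies, so these are not independent. Windows away from the summits were not searched, so there is no background share. Reads of near-identical copies cannot be told apart, so such copies may be called together, which was not tested. For the summit of the peak of fold 9.60, all 38 copies lay in a peak, as did all 41 of the peak of fold 8.53 and all 83 of the peak of fold 7.37.

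Peaks with a pair of direct repeats, as at the ends of LTR retrotransposons, were wider in both arms than peaks without one. Their median folds were also higher. The 5 peaks of highest fold on the short arm all had a pair, but on the long arm the peaks of fold 8.47, 6.65 and 6.41 had none. A pair of at least 100 bp and 80% identity, spanning the summit and with at least 50% of its span inside the peak, was found in 30 of the 316 short-arm peaks searched and in 17 of the 121 long-arm peaks. Its median length was 512.5 and 355 bp, and its median identity 94.4 and 95.2%. The median fold was 5.35 in short-arm peaks with a pair and 2.49 in the others, and 5.19 and 2.50 on the long arm. Peaks with a pair were also wider, with medians of 6161 and 4527 bp against 829.5 and 749 bp, and a wide peak has more room for a pair. The 2 copies had to start at least 1000 bp apart, so no peak under 500 bp could be called with a pair. All peaks of at least 5 kb, with or without a pair, had median folds of 4.97 and 5.31. Peaks with and without a pair were not compared at like widths. A tRNA primer site lay beside the inner edge of a repeat, or overlapped it, in 9 short-arm and 11 long-arm peaks. All but 1 of these sites were the 12 bases TGGTATCAGAGC, sought on both strands. This word occurred at 35 places of the short arm, 24 of them in a peak. On the long arm it occurred at 22 places, 9 of them in a peak. The word was taken from the sites at these pairs, 9 on the short arm and 10 on the long arm. Its count in peaks was thus partly set by that choice on the short arm. On the long arm it may be wholly set by it. Peaks covered 29.5% of the bases of the short arm and 2.14% of the long arm, and the counts are descriptions only. Of all windows of 30 bases, the length searched across the inner edge of a repeat, 0.0190% held the word on the short arm and 0.00322% on the long arm.

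A repeat pair was not always the mark of a retrotransposon. Of the 17 pairs of the long arm, 2 lay in genes for extensins, cell wall proteins built of proline-rich repeats, and both were singled out after their values had been seen. EXT6 had 70.2% of its length in a peak (chr2:10622798-10624140, fold 2.70), and EPR1 64.7% (chr2:11713952-11715480, fold 3.404). The summit in EXT6 (chr2:10623372-10623471, plus strand) is shown with its commonest word of 12 bases in capitals, which stood 3 times in the window and 12 times in the gene.
EXT6: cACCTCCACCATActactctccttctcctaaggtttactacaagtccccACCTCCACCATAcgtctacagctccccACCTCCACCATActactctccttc
Of 13 extensin genes of the long arm these 2 met a peak, where 1.19% of all protein-coding genes of the arm did. In EXT6 45.5% of the words of 50 bases in the peak occurred once in the reference, and in EPR1 83.7%.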

How the data were processed

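Chromatin of 1 flower bud sample was divided between antibodies against H3K9me2 and H3, and the H3K9me2 peak list was used here. Per the submitters' processing notes, Bowtie 1.1.2, SAMtools and MACS2 2.1.1 were used with build TAIR10, with no role given. The control, the settings of the peak caller and the treatment of reads with several places are not given in the sources used here. The deposited list gives fold enrichment at the summit as a ratio, and −log10 p and −log10 q values made by the authors' peak caller, all as deposited. Its score column and the summit offset were also deposited by the authors, and the score was not used. The list holds no read counts, so its depth is unknown. Peaks were called on a single library, so replicates could not be compared. The H3 library, the leaf library and the DNA methylation files were not analysed here.

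Members were chosen by summit position, and the members and gene lists were chosen with earlier results of these data known. Peaks named are the 5 widest and the 5 of highest fold in each arm, those of lowest fold, those at the borders, and those at the rRNA genes and the insertion. Genes under or within 1 kb of these and of the lists could be named. The product groups, EXT6, EPR1, the genes in the closing observations and the primer word were chosen after their values were seen. Loci and sequences came from RefSeq TAIR10.1, and peak coordinates are printed 1-based. A locus was counted when at least 1 bp lay in a peak and was placed by its midpoint. The insertion was found with minimap2 2.31 against the mitochondrial genome of TAIR10.1, which may differ from that in the authors' index. The alignment settings were loosened after exact words of 50 bases and blastn placed its start further left than a first alignment did. Copies and end repeats came from blastn 2.17.0, the repeats over peaks of up to 30 kb with 3000 bp on either side. Python 3.11.15, numpy 2.4.6, pandas 2.3.3 and scipy 1.17.1 were used. The functions were tested on simulated data. Shares of loci carry 95% Wilson intervals. The alternatives were other fold, width, merging, border and overlap settings, and arms without the rRNA end, the stretch or the insertion.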

Additional observations from a re-analysis of the deposited data

How the results depend on the processing

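The short arm exceeded the long arm in the share of bases inside peaks, in peaks per Mb and in the shares of protein-coding genes and pseudogene loci under each setting tried, while the order of median width and of median fold changed with the setting. Of 82 alternative values 40 stayed within a set range of the reported value and 42 did not. The range was the 95% Wilson interval for shares of loci, a 95% interval of the median for width and fold, and a factor of 1.5 for peaks per Mb and shares of bases. Both intervals treat the loci or peaks of 1 library as independent, which neighbours are not. They serve here only to sort the alternatives. With peaks at or above the median fold of the whole list, the short arm had 43.7 peaks per Mb, a median width of 2936 bp, a median fold of 3.34 and 66.7% of pseudogene loci, and the long arm had 4.54 peaks per Mb, 4021 bp, 4.10 and 0.694% of protein-coding genes. At or above the upper quartile of fold, the short arm had 18.7% of bases inside peaks, 17.1 peaks per Mb, 4848.5 bp, a fold of 5.09, 17.3% of genes and 40.4% of pseudogene loci. The long arm then had 1.39%, 2.38 per Mb, 5166 bp, 5.26, 0.347% and 38.1%. With peaks of at least 500 bp, widths were 1677 and 1594 bp and folds 2.97 and 3.36, and 0.839% of long-arm genes met a peak. With peaks under 1 kb apart merged, the short arm had 43.7 peaks per Mb, 2930 bp and a fold of 3.08, and the long arm a width of 1581 bp. With a wider pericentromere, borders at 1.1 and 7.1 Mb, the short arm had 9.19% of bases, 22.7 peaks per Mb, 1224 bp, a fold of 2.96 and 3.75% of genes. Without the insertion, 8.06% of short-arm genes met a peak. Without the stretch from 1.8 to 3.4 Mb, the short arm had 13.9% of bases, 41.6 peaks per Mb, 674 bp, 10.8% of genes and 76.4% of pseudogene loci. There the insertion peak still counted over its bases beyond 3.4 Mb. Counting a locus only with at least 50% of its length inside gave 76.2% of short-arm pseudogene loci and 0.810% of long-arm genes. No paired analysis was possible because only 1 library had a peak list. With no read counts, the precision of single folds is unknown.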

Other observations

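Long stretches of the long arm held no peak. The gap between neighbouring peaks had a median of 864 bp on the short arm and 34467.5 bp on the long arm, and 7 gaps of the long arm were at least 500 kb long. The longest, chr2:17419113-18497409, was 1078297 bp with 331 protein-coding genes. The gaps chr2:13426597-14403256 and chr2:16010448-16972750 held 273 and 265 genes.

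Far from the pericentromere, several of the few peaks overlapped genes, and those named here were chosen after their values were seen. Genes took up 67.7% of bases at 6 to 8 Mb on the long arm, 66.0% at 8 to 10 Mb and 68.1% in the last 3.00 Mb. In these steps 6 of 557 (1.08%), 5 of 550 (0.909%) and 5 of 878 genes (0.569%) met a peak. Over the whole arm the share was 1.19%. Neighbouring genes of the RING/U-box family, APD4 and APD3, had 56.8 and 79.5% of their length inside peaks with folds of 3.12 and 4.22. Only 35.6 and 36.1% of the 50-base words in these peaks occurred once in the reference. In AT2G34100, annotated as a nonsense-mediated mRNA decay-like protein, 4 peaks had their summits in introns, the widest at chr2:14408529-14412348 (3820 bp, fold 5.99), and 34.5% of the gene lay inside peaks. That peak also covered 99.4% of the pseudogene locus AT2G34130 (annotated as MEE19), which lies within the span of AT2G34100, and had a pair of direct repeats. Nearer to the pericentromere, in the gene-poor stretch of the short arm, 31 of 122 genes (25.4%) met a peak. Among them HA6, a plasma membrane proton pump gene, had 52.6% of its length inside a peak of fold 3.29.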
